A study of Mus musculus with 16 samples.

Results

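The heat shock chaperones described here were 10 genes, Hspa8, Hspa1a, Hspa1b, Hsph1, Dnajb1, Hsp90aa1, Hsp90ab1, Hspb1, Bag3 and Hsf1, taken by symbol from the 54532 entries of a table of gene counts. All 10 were found, with 1 entry each, and all 10 passed the filter on low counts, which left 17736 genes to test. The counts came from bulk RNA sequencing of brain tissue from female mice of 9 months, in 16 libraries that form 4 groups of 4. Ch25h+/+ and Ch25h-/- animals were each studied without (Tau-) and with (Tau+) tau. Ch25h is the gene of cholesterol 25-hydroxylase, whose product is an oxysterol, and -/- marks animals that lack it. Tau+ is read as carrying a tau transgene, but the labels give neither its line nor its promoter, and they name no treatment and no strain. Nothing in the labels says whether the libraries of a group came from separate animals, so the p-values below measure the spread between these libraries.

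Chaperones bind unfolded stretches of other proteins and keep them from clumping. HSP70 proteins hold a client in cycles of ATP use that J-domain proteins start and nucleotide exchange factors end, and HSP90 receives clients from HSP70 for the last steps of folding. When unfolded protein builds up, the transcription factor HSF1 binds heat shock elements, inverted repeats of a short unit, and turns on the inducible members of the family. Tau is a known client of HSP70 and HSP90, and the co-chaperone BAG3 is known to route tau to autophagy.

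Several facts of the libraries bear on the values. Totals ran from 15530352 to 25602500 counts per library. Ch25h had 0 counts in all 8 Ch25h-/- libraries and 5 to 30 in the Ch25h+/+ ones, as labelled. The sample labels name frontal cortex and the series text names hippocampus, and the summed CPM (counts scaled to a common library size) of 5 cortex markers (471 to 608) exceeded those of 5 hippocampus markers (173 to 335) in every library. A ribosomal RNA transcript, CT010467.1, reached 1000 CPM (on total counts) in 7 of the 8 libraries of Ch25h-/- mice and in none of the 9 remaining libraries, and these 7 are called rRNA-rich below. Ch25h-/- Tau+ replicate 1 was the exception, so within Tau- the Ch25h genotype and this library class cannot be told apart, and within Tau+ 1 library separates them. In bulk tissue, fewer cells of a type and less RNA per cell cannot be told apart either.

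Hspa1a and Hspa1b, the stress-inducible HSP70 genes, are shown first because counts for the pair depend on how reads shared by both were treated. Hspa1a lies at chr17:34969190-34972156 and Hspa1b at chr17:34956436-34959238, both on the minus strand of GRCm38. In the GENCODE M21 transcripts their coding sequences, of 1926 and 1929 bases, were identical at 1918 of 1926 aligned bases (99.6%). The substitutions, counted from the first coding base of Hspa1a, were A156G, T795G, A921G, A1380G, A1416G, A1629G, C1881G and G1884A, and the longest identical run was 638 bases. Of all 100-base windows of the Hspa1a transcript, 47.1% occur unchanged in Hspa1b. The following stretch of 65 coding bases holds A1380G and A1416G, in capitals, and shows how little separates reads of both genes.
Hspa1a: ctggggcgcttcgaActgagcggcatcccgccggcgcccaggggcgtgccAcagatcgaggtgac
Hspa1b: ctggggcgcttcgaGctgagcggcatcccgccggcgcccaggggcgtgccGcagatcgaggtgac

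The 250 bases before the start sites of the pair, from RefSeq on GRCm38.p6, were identical at 247 positions (98.8%), so the copies share their proximal promoter as well. They are printed with that of Hspb1, the small heat shock protein among the 10 genes. Capitals mark heat shock elements of 2 inverted units, searched as GAANNTTC or TTCNNGAA, each of which reads the same on both strands.
Hspa1a (chr17:34972157-34972406, minus strand): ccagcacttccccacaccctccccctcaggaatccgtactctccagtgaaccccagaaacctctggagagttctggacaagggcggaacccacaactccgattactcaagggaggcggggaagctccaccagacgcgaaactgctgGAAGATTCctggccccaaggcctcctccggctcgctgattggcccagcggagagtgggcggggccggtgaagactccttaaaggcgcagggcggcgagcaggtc
Hspa1b (chr17:34959239-34959488, minus strand): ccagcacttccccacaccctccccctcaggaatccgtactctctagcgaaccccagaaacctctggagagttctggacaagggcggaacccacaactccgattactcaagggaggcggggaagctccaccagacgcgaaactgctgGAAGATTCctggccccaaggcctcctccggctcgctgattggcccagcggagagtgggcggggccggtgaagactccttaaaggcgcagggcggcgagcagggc
Hspb1 (chr5:135887669-135887918, plus strand): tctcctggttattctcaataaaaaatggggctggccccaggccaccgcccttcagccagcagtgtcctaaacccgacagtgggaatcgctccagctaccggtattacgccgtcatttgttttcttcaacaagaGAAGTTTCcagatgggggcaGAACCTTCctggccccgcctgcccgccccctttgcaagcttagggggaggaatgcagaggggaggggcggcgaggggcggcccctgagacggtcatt

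RefSeq gave 8 promoter windows of 300 bases (250 before the start and 50 after it) for 6 of the 10 genes. Hspa1a and Hspa1b each held 1 element of 2 units, GAAGATTC at -104 to -97, and the CCAAT box letters, read as ATTGG, at -67 to -63. Hspb1 held GAAGTTTC at -117 to -110 and GAACCTTC at -97 to -90. Both windows of Hsph1 held 3 matches, TTCTCGAA at -54 to -47 from the first start site and an overlapping pair just after it, at 16 to 28, that forms an element of 3 units. Bag3 held 1 match, at 43 to 50 after its start, and the windows of Dnajb1 held none. Among all 32851 promoter windows of the same length, 15.1% held an element of 2 units, 1.96% held at least 2 of them, and 0.603% held an element of 3 units. No window of the 6 genes held the TATA box letters TATAAA on either strand (13.6% of all windows did), and CCAAT was in 37.4% of all windows. It was in the windows of Hspa1a and Hspa1b, in both of Hsph1 and in 1 of the 2 of Dnajb1. These are letter matches and no measure of HSF1 binding.

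Levels of different genes were compared as RPKM, here TMM-scaled CPM divided by the length in kb of the longest coding transcript. With this length, group means of RPKM put the 10 genes in 6 tiers whose ranges over the 16 libraries did not overlap. The constitutive genes stood highest, Hsp90ab1 at 563 to 614 and Hspa8 at 507 to 618 RPKM, followed by Hsp90aa1 at 283 to 322. Hsph1 followed at 69.7 to 79.2 RPKM, then Hsf1 at 22.8 to 26.3 together with Dnajb1 at 20.4 to 25.2, then Hspb1 at 8.95 to 10.5. The lowest tier held Bag3 at 3.98 to 5.11, Hspa1b at 3.996 to 4.67 and Hspa1a at 2.82 to 4.10 RPKM. Within a tier, neighbouring genes overlapped across libraries, so their order is not set by these data. The tiers themselves rest on the length chosen. All exons together span 4301 bases for Hspa8 and 7099 for Hsf1, against the 2394 and 2104 used here. Values of Hspa1a and Hspa1b would also be too low if reads shared by both were dropped, which is not known.

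**Figure D1:**
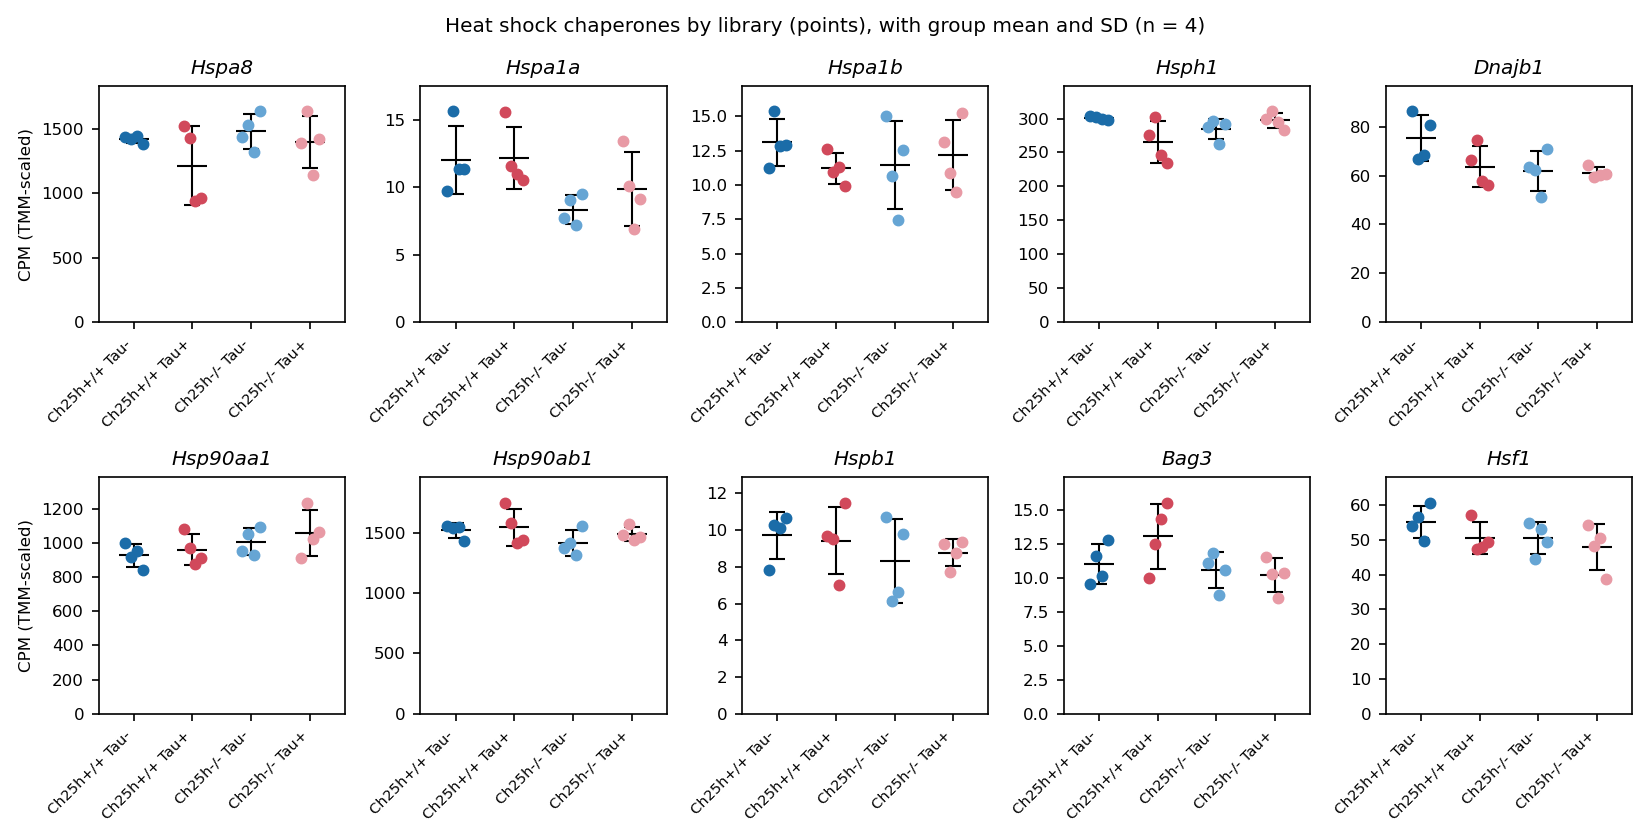
Normalised counts (TMM-scaled CPM, y axis from 0) of the 10 genes in each library (points), with the group mean and SD (n = 4) for the 4 genotype groups on the x axis. Hspa1a in Ch25h-/- Tau- (7.17 to 9.48 CPM) lies below all Ch25h+/+ Tau- libraries, and Hspa8 in Ch25h+/+ Tau+ splits into 2 libraries at 941.9 and 962.0 and 2 at 1426 and 1521 CPM.

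None of the 10 genes differed past the threshold of an adjusted p of 0.05 in any of 5 comparisons (edgeR quasi-likelihood test, Benjamini-Hochberg over 17736 genes). The share of all genes past it was 1.56% for the tau effect in Ch25h+/+, 0.0395% for the tau effect in Ch25h-/-, 1.03% for Ch25h loss in Tau-, 3.55% for Ch25h loss in Tau+ and 0.0338% for the interaction. With such shares, a count of 0 among 10 genes is near the background. At an unadjusted p under 0.05 the counts were 2, 0, 2, 2 and 1 of 10 in the same order, against 9.38%, 3.68%, 20.9%, 23.9% and 4.13% of all genes. DESeq2 called none of the 10 either, and limma-voom called 1, Bag3 for Ch25h loss in Tau+. The comparisons share groups, so their values are not independent of each other.

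Fold changes of the 10 genes were small. The median log2 fold change was -0.087 for tau in Ch25h+/+ (4 higher, 6 lower), 0.067 for tau in Ch25h-/- (6 higher, 4 lower), -0.12 for Ch25h loss in Tau- (2 higher, 8 lower) and -0.054 for Ch25h loss in Tau+ (4 higher, 6 lower). Over all genes tested these medians were -0.0080, 0.0080, 0.0087 and 0.0044, with 52.2%, 47.2%, 48.6% and 49.3% of genes lower. The difference between both tau effects, the interaction, had a median of 0.13 over the 10 genes (9 above 0 and 1 below) and 0.015 over all genes, 46.3% of which were below 0. Several of the 10 genes vary together from library to library, so their directions are not independent. No single log2 fold change was larger in size than that of Hspa1a for Ch25h loss in Tau-, -0.52.

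**Figure D2:**
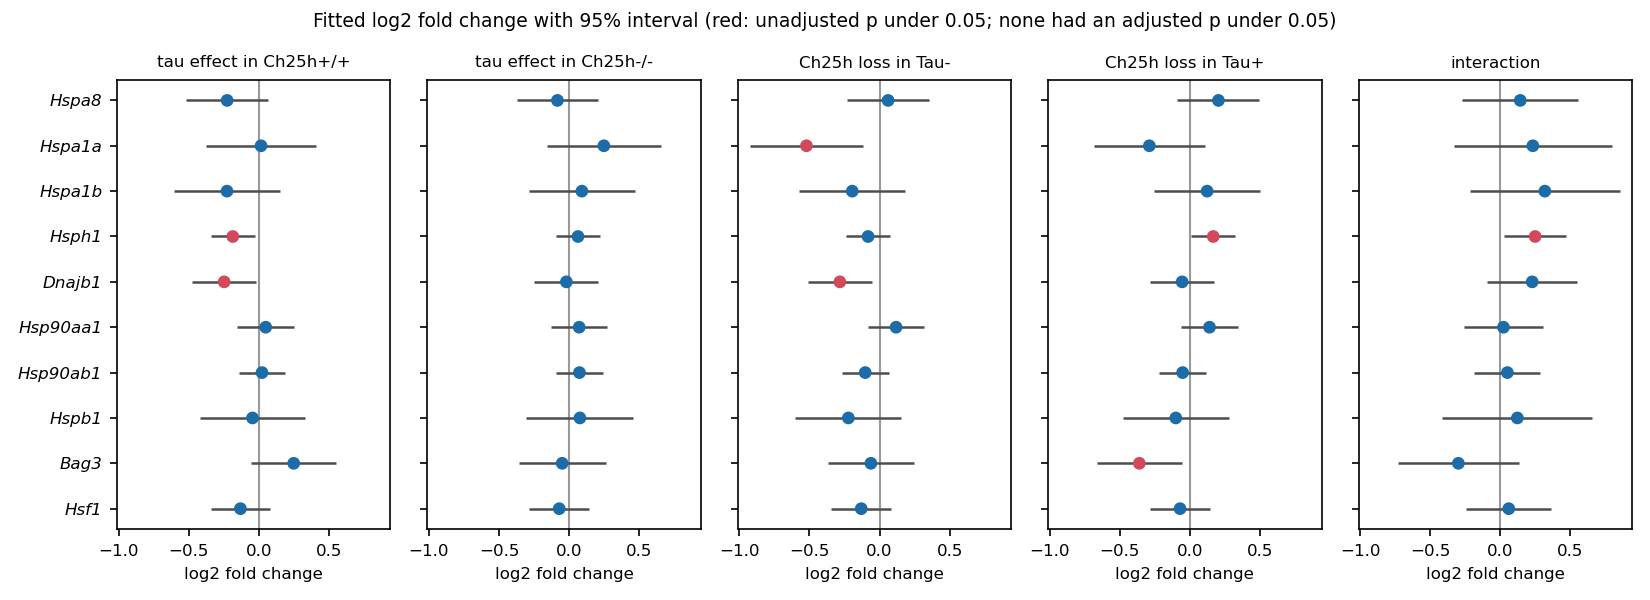
Log2 fold change (x axis) of each gene (y axis) in the 5 comparisons, as a point with its 95% interval from the edgeR fit. Points in red had an unadjusted p under 0.05, and they number 2, 0, 2, 2 and 1 from left to right.

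Hspa8, the constitutive cytosolic HSP70 that carries most of the folding load in neurons, lies at chr9:40800984-40810087 on the plus strand. Its Ch25h+/+ Tau- libraries had 1434, 1418, 1444 and 1377 CPM, a CV of 2.09%. In Ch25h+/+ Tau+ the values were 1521, 1426, 941.9 and 962.0 CPM, so replicates 3 and 4 were the 2 lowest libraries of all 16 and the other 2 lay within or above the Tau- range. The CV of that group was 25.1%, where counting error alone gives between 0.583% and 0.634% for this gene in the 4 groups.
The Ch25h-/- Tau- libraries had 1436, 1531, 1315 and 1634 CPM, and the Ch25h-/- Tau+ libraries 1390, 1633, 1141 and 1420 CPM. The log2 fold change with tau in Ch25h+/+ was -0.23 (95% interval -0.52 to 0.066, edgeR quasi-likelihood test, Benjamini-Hochberg adjusted p = 0.714). It was -0.12 without Ch25h+/+ Tau+ replicate 3, -0.13 without replicate 4, -0.35 without replicate 1 and -0.30 without replicate 2. With limma-voom and quality weights it was -0.40 (adjusted p = 0.0972). The value thus moved by over 1.5 times without either low library, without replicate 1 and with limma-voom. For Ch25h loss it was 0.061 (-0.23 to 0.35) in Tau- and 0.20 (-0.089 to 0.49) in Tau+. The value in Tau+ ran from 0.097 without Ch25h+/+ Tau+ replicate 4 to 0.36 with limma-voom, and that in Tau- turned to -0.025 with GC-corrected offsets. The value in Tau- was also 0.0058 without Ch25h-/- Tau- replicate 4 and 0.11 without replicate 3. That in Tau+ was 0.33 without Ch25h+/+ Tau+ replicate 1, 0.0998 without replicate 3 and 0.10 without Ch25h-/- Tau+ replicate 2.
The 5 oligodendrocyte markers, all detected in every group, summed to 4568 and 4188 CPM in Ch25h+/+ Tau+ replicates 3 and 4, the highest sums of the 16 libraries. They summed to 2426 and 3022 CPM in replicates 1 and 2, to 2397 to 3289 in Ch25h+/+ Tau- and, over both Ch25h-/- groups, to 1874 to 3518. Their part in the Hspa8 values was not tested.

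Hspa1a had 9.75, 15.6, 11.3 and 11.3 CPM in the Ch25h+/+ Tau- libraries and 15.6, 11.6, 10.97 and 10.6 CPM in Ch25h+/+ Tau+. It had 7.71, 9.06, 7.17 and 9.48 CPM in Ch25h-/- Tau- and 13.5, 10.1, 6.88 and 9.12 CPM in Ch25h-/- Tau+. All Ch25h-/- Tau- libraries were below all Ch25h+/+ Tau- libraries, while the Tau+ groups overlapped. The group means in Tau- were 12.02 ± 2.53 and 8.36 ± 1.09 CPM (SD, n = 4), a log2 fold change of -0.52 (95% interval -0.92 to -0.12) with an unadjusted p of 0.0137 and an adjusted p of 0.135 in the edgeR quasi-likelihood test (Benjamini-Hochberg). It was therefore 1 of 2 members, with Hsph1, whose groups did not overlap in this comparison, where 16.2% of all genes did not overlap. In the tau comparisons of Ch25h+/+ and Ch25h-/- and in Ch25h loss in Tau+, no member was free of overlap, against 5.86%, 2.14% and 10.2% of all genes. With 119 to 344 counts per library, counting error alone gave Hspa1a a CV of 6.36% to 8.37%, and the observed CV was 13.1% to 27.7%.

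Hspa1b stayed within 7.47 to 15.4 CPM, with group means of 13.1 ± 1.69 in Ch25h+/+ Tau-, 11.2 ± 1.11 in Ch25h+/+ Tau+, 11.4 ± 3.20 in Ch25h-/- Tau- and 12.2 ± 2.53 in Ch25h-/- Tau+ (SD, n = 4). All group ranges overlapped. Its log2 fold change for Ch25h loss in Tau- was -0.19 (95% interval -0.57 to 0.18), and it was 0.12 (-0.25 to 0.50) in Tau+. The value in Tau- was -0.35 without Ch25h-/- Tau- replicate 1 and -0.0063 with GC-corrected offsets, and it also moved by over 1.5 times without replicate 3 of that group or Ch25h+/+ Tau- replicate 2. The value in Tau+ was 0.30 with GC-corrected offsets and turned to -0.012 without Ch25h-/- Tau+ replicate 4, and it moved by over 1.5 times without Ch25h-/- Tau+ replicate 1 or 3 or Ch25h+/+ Tau+ replicate 4. Since the split of reads between the copies is uncertain, the counts of both were also summed. The summed pair gave -0.34 for Ch25h loss in Tau- (95% interval -0.68 to -0.0041, adjusted p = 0.235 in the edgeR quasi-likelihood test with Benjamini-Hochberg) and -0.078 (-0.42 to 0.26) in Tau+. With tau, the sum gave -0.11 (-0.44 to 0.23) in Ch25h+/+ and 0.16 (-0.18 to 0.50) in Ch25h-/-. The gene Gm20481, which overlaps Hspa1a on the opposite strand, had 0 counts in all 16 libraries.

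The Hspa1a values moved with the library class. In the 7 rRNA-rich libraries Hspa1a was at 6.88 to 10.1 CPM, and in the 9 others at 9.75 to 15.6 CPM. Ch25h-/- Tau+ replicate 1, the Ch25h-/- library of the second class, was at 13.5 CPM, inside the Ch25h+/+ range. With the class as a covariate the log2 fold change for Ch25h loss in Tau- turned to 0.11, and in Tau+ from -0.29 to 0.15, both resting on that 1 library. With GC-corrected offsets the value in Tau- shrank to -0.31 (adjusted p = 0.530) and that in Tau+ to -0.10. Leaving out Ch25h-/- Tau+ replicate 1 took the value in Tau+ to -0.50, and leaving out replicate 3 of that group or replicate 1 of Ch25h+/+ Tau+ took it to -0.16. The part of the class in the difference was not tested beyond this fit.

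**Figure D3:**
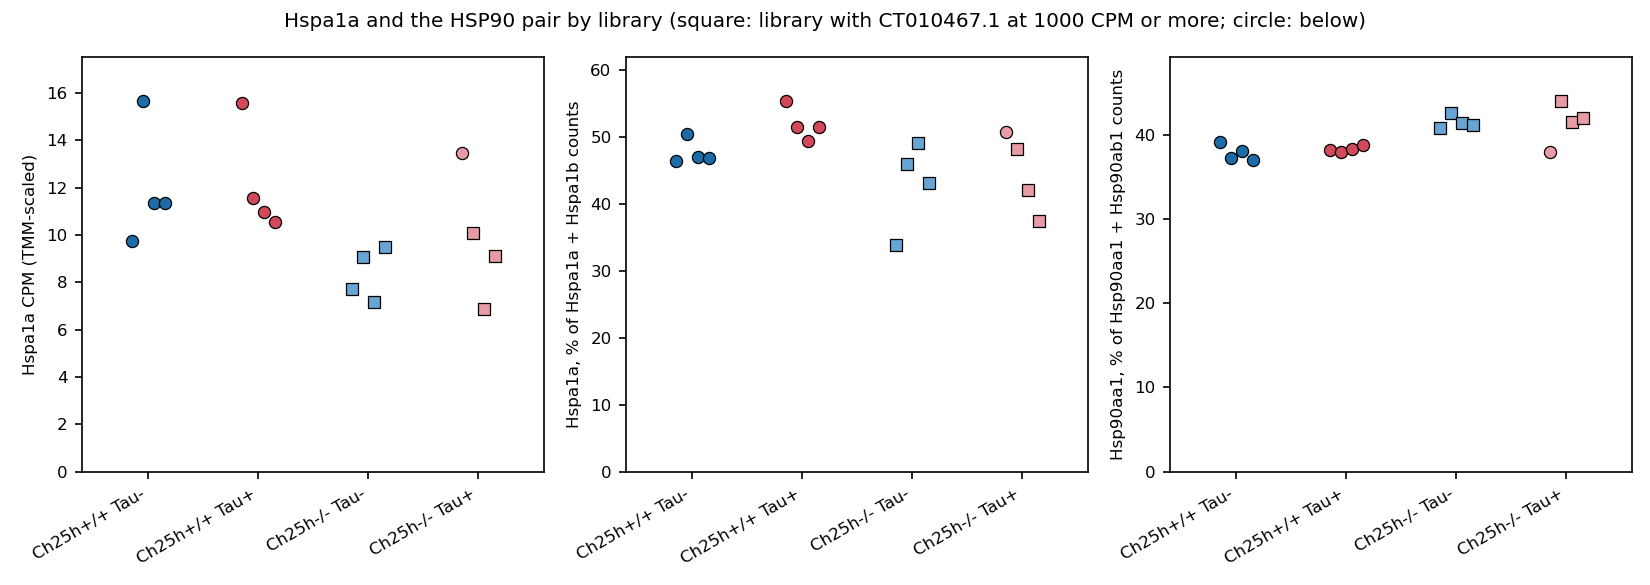
Hspa1a level (TMM-scaled CPM), Hspa1a as a percent of the counts of Hspa1a and Hspa1b, and Hsp90aa1 as a percent of the counts of Hsp90aa1 and Hsp90ab1 (y axes, from 0), for each library of the 4 groups (x axis). Squares are the 7 rRNA-rich libraries and circles the 9 others; the circle in Ch25h-/- Tau+ lies with the Ch25h+/+ libraries in all 3 panels.

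Hsph1, an HSP110 that exchanges nucleotide on HSP70 and helps it pull aggregates apart, lies at chr5:149614287-149636376 on the minus strand. The Ch25h+/+ Tau- libraries had 304.4, 302.9, 299.5 and 298.0 CPM, a CV of 0.993%, which is below the 1.27% to 1.44% that counting error alone gives in the 4 groups. The Ch25h+/+ Tau+ libraries had 276.4, 302.8, 246.2 and 234.5 CPM, so 3 of 4 were below all Tau- libraries and replicate 2 was among them. In Ch25h-/- the values were 287.9, 295.7, 262.0 and 292.6 CPM in Tau- and 299.6, 310.6, 295.2 and 283.7 CPM in Tau+.
The log2 fold change with tau was -0.18 (95% interval -0.34 to -0.028, unadjusted p = 0.0236, edgeR quasi-likelihood adjusted p = 0.395) in Ch25h+/+ and 0.063 (-0.094 to 0.22) in Ch25h-/-. The difference between both, the interaction, was 0.25 (0.026 to 0.47) with an unadjusted p of 0.0307 and an adjusted p of 1 in the edgeR quasi-likelihood test (Benjamini-Hochberg). For Ch25h loss the log2 fold change was 0.17 (0.0089 to 0.32, adjusted p = 0.187) in Tau+ and -0.082 (-0.24 to 0.075) in Tau-, where the groups did not overlap. The value in Tau+ was 0.10 without Ch25h+/+ Tau+ replicate 4 and 0.11 with GC-corrected offsets. That in Tau- was -0.14 with GC-corrected offsets and -0.043 without Ch25h-/- Tau- replicate 3. The value for tau in Ch25h-/- was 0.020 without Ch25h-/- Tau- replicate 3, and it moved by over 1.5 times without Ch25h-/- Tau+ replicate 2.

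Dnajb1, the J-domain protein that brings clients to HSP70 and feeds back on HSF1, lies at chr8:83608193-83612653 on the plus strand. Its Ch25h+/+ Tau- libraries had 86.3, 66.7, 68.3 and 80.5 CPM, the highest group mean of the 4 (75.4 ± 9.49, SD, n = 4). The Ch25h+/+ Tau+ libraries had 66.2, 74.3, 57.8 and 56.0 CPM, the Ch25h-/- Tau- libraries 63.5, 62.4, 51.1 and 71.0 CPM, and the Ch25h-/- Tau+ libraries 64.4, 59.3, 60.4 and 60.5 CPM. Each of these groups overlapped Ch25h+/+ Tau- except Ch25h-/- Tau+, which no comparison sets against it.
The log2 fold change was -0.25 with tau in Ch25h+/+ (95% interval -0.47 to -0.020, unadjusted p = 0.0342, edgeR adjusted p = 0.459) and -0.28 for Ch25h loss in Tau- (-0.51 to -0.056, unadjusted p = 0.0174, edgeR adjusted p = 0.149). The latter was -0.18 with the library class as a covariate. It was -0.020 (-0.25 to 0.21) with tau in Ch25h-/- and -0.056 (-0.28 to 0.17) for Ch25h loss in Tau+. Neither of these small values had a settled sign. With tau in Ch25h-/- it ran from -0.11 without Ch25h-/- Tau- replicate 3 to 0.048 without replicate 4, and it also moved by over 1.5 times without Ch25h-/- Tau+ replicate 1 or 2. For Ch25h loss in Tau+ it ran from -0.12 without Ch25h+/+ Tau+ replicate 4 to 0.019 with the class covariate, with 0.011 without replicate 2, and it moved by over 1.5 times without Ch25h+/+ Tau+ replicate 3 or Ch25h-/- Tau+ replicate 1. The summed CPM of 10 immediate early genes, which neurons switch on with activity, also varied between libraries. In replicates 1 to 4 it was 3316, 1449, 1339 and 2969 CPM in Ch25h+/+ Tau- and 1467, 2549, 1196 and 1548 CPM in Ch25h+/+ Tau+. In the same order it was 2432, 1850, 657.5 and 2427 CPM in Ch25h-/- Tau- and 2166, 827.3, 757.5 and 1880 CPM in Ch25h-/- Tau+. In Ch25h+/+ Tau- the libraries with the most Dnajb1, replicates 1 and 4, had the highest sums, and Ch25h-/- Tau- replicate 3, with the least Dnajb1 of all 16 libraries, had the lowest. Ch25h+/+ Tau+ replicate 2 and Ch25h-/- Tau+ replicate 1 were likewise the highest of their groups in both. The order was not the same throughout. Ch25h+/+ Tau+ replicate 4 had a higher sum than replicate 1 but less Dnajb1, and Ch25h-/- Tau+ replicates 3 and 4 had nearly the same Dnajb1 at 757.5 and 1880 CPM. The part of these genes in the Dnajb1 differences was not tested.

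The HSP90 genes encode the stress-responsive HSP90 alpha (Hsp90aa1, chr12:110690605-110702728) and the constitutive HSP90 beta (Hsp90ab1, chr17:45567775-45573271). Group means of Hsp90aa1 were 928 ± 67.3 CPM in Ch25h+/+ Tau-, 960 ± 89.4 in Ch25h+/+ Tau+, 1007 ± 79.5 in Ch25h-/- Tau- and 1058 ± 134.8 in Ch25h-/- Tau+ (SD, n = 4). Those of Hsp90ab1 were 1523 ± 60.6, 1548 ± 154.9, 1419 ± 105.2 and 1493 ± 58.3 CPM (SD, n = 4) in the same order. Their ranges overlapped in every comparison. The 95% intervals of the tau effect were -0.15 to 0.25 and -0.13 to 0.27 for Hsp90aa1, and -0.14 to 0.19 and -0.093 to 0.24 for Hsp90ab1, in Ch25h+/+ and Ch25h-/-. The bound farthest from 0 among these 4 intervals was 0.27.

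The balance between both HSP90 genes, chosen for display after its values were seen, differed with the library class. Hsp90aa1 made up 37.8 ± 0.939% and 38.3 ± 0.342% of HSP90 counts in Ch25h+/+ Tau- and Tau+, and 41.5 ± 0.758% and 41.4 ± 2.48% in Ch25h-/- Tau- and Tau+ (SD, n = 4). The 7 rRNA-rich libraries lay at 40.8% to 43.9% and the 9 others at 37.0% to 39.1%, with Ch25h-/- Tau+ replicate 1 at 38.0%. Thus the Ch25h-/- library of the second class had the Ch25h+/+ balance. The longest annotated transcript of Hsp90aa1 has a GC content of 0.437 and that of Hsp90ab1 of 0.510. With counts corrected for the GC trend of each library, the log2 fold change of Hsp90aa1 for Ch25h loss in Tau- went from 0.12 to -0.0090. It also moved by over 1.5 times, with no change of sign, without replicate 4 of Ch25h+/+ Tau- or of Ch25h-/- Tau-. For Ch25h loss in Tau+ the value of Hsp90aa1 was 0.14, and alternatives ran from -0.078 (class covariate) to 0.22 (limma-voom). That of Hsp90ab1 for Ch25h loss in Tau- was -0.10 and stayed between -0.16 and -0.066 in every alternative. The part of GC content in the balance was not tested.

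Hspb1, a small heat shock protein that holds unfolded clients without ATP and in brain is found in glia and vessels, lies at chr5:135887919-135889563. It had 6.12 to 11.5 CPM over the 16 libraries, with group means of 9.72 ± 1.30, 9.42 ± 1.83, 8.32 ± 2.29 and 8.77 ± 0.742 CPM (SD, n = 4) in the group order given for Hsp90aa1. All groups overlapped. Its log2 fold changes were between -0.22 and 0.077 in the tau and Ch25h comparisons, and with 104 to 246 counts per library the 95% intervals were wide, as in -0.60 to 0.16 for Ch25h loss in Tau-. That log2 fold change, -0.22, ran from -0.36 without Ch25h-/- Tau- replicate 1 to 0.039 with GC-corrected offsets, and it moved by over 1.5 times without replicate 2 or 3 of that group as well.

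Bag3, the co-chaperone that joins HSP70 to small heat shock proteins and to autophagy, lies at chr7:128523616-128546981 on the plus strand. It had 9.56, 11.7, 10.2 and 12.8 CPM in the Ch25h+/+ Tau- libraries and 10.04, 12.5, 14.3 and 15.6 CPM in Ch25h+/+ Tau+. In Ch25h-/- it had 11.1, 11.8, 8.74 and 10.6 CPM in Tau- and 11.6, 10.3, 8.52 and 10.4 CPM in Tau+. The 2 highest libraries of all were Ch25h+/+ Tau+ replicates 3 and 4, and every pair of groups overlapped.
The log2 fold change was 0.25 with tau in Ch25h+/+ (95% interval -0.054 to 0.55) and -0.050 in Ch25h-/- (-0.36 to 0.26). The value in Ch25h+/+ was 0.16 without Ch25h+/+ Tau+ replicate 4. That in Ch25h-/- ran from -0.14 without Ch25h-/- Tau- replicate 3 to 0.020 without Ch25h-/- Tau+ replicate 3. It moved by over 1.5 times without Ch25h-/- Tau- replicate 1 or 2 or Ch25h-/- Tau+ replicate 1 too. The interaction, -0.30 (-0.73 to 0.13), was the sole negative one among the 10 genes, and limma-voom gave -0.45. For Ch25h loss in Tau+ it was -0.36 (-0.67 to -0.056, unadjusted p = 0.0231, edgeR quasi-likelihood adjusted p = 0.144, Benjamini-Hochberg), and limma-voom with quality weights gave -0.49 with an adjusted p of 0.0256. The value shrank to -0.18 with the library class as a covariate (adjusted p = 0.976) and to -0.23 with GC-corrected offsets (adjusted p = 0.440). Reactive astrocyte markers (5 of 5 detected in every group) summed to 572, 724, 752 and 1600 CPM in Ch25h+/+ Tau+ replicates 1 to 4, against 167 to 210 CPM for Ch25h+/+ Tau-. Ch25h-/- libraries had 150 to 220 CPM (Tau-) and 192 to 361 CPM (Tau+). Their part in the Bag3 values was not tested.

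Hsf1, the transcription factor that senses unfolded protein, lies at chr15:76477422-76501913 on the plus strand. It had group means of 55.3 ± 4.67 CPM in Ch25h+/+ Tau-, 50.5 ± 4.59 in Ch25h+/+ Tau+, 50.5 ± 4.63 in Ch25h-/- Tau- and 48.0 ± 6.53 in Ch25h-/- Tau+ (SD, n = 4), and all groups overlapped. Its log2 fold changes with tau were -0.13 (95% interval -0.34 to 0.082) in Ch25h+/+ and -0.071 (-0.29 to 0.14) in Ch25h-/-. For Ch25h loss they were -0.13 (-0.34 to 0.083) in Tau- and -0.071 (-0.28 to 0.14) in Tau+. The value for tau in Ch25h+/+ was -0.083 without Ch25h+/+ Tau- replicate 4, and that in Ch25h-/- was 0.014 without Ch25h-/- Tau+ replicate 4. That in Ch25h-/- also moved by over 1.5 times without Ch25h-/- Tau- replicate 1 or 2 or Ch25h-/- Tau+ replicate 1. Both values for Ch25h loss turned above 0 with the library class as a covariate (0.11 in Tau- and 0.10 in Tau+). The value in Tau- moved by over 1.5 times without Ch25h+/+ Tau- replicate 4 or Ch25h-/- Tau- replicate 2. The value in Tau+ was -0.15 without Ch25h-/- Tau+ replicate 1 and 0.0050 without replicate 4, and it moved by over 1.5 times without Ch25h+/+ Tau+ replicate 1 or 2. HSF1 is known to be regulated mainly as a protein, so its mRNA is no measure of its activity.

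Within groups, part of the family varied together from library to library. Deviations from the group means of log2(CPM + 0.5) over the 16 libraries gave a Pearson r of 0.87 between Hspa8 and Hsp90ab1, 0.80 between Hspa8 and Hsph1, 0.80 between Hsp90aa1 and Hsp90ab1, and 0.71 between Hsph1 and Dnajb1. Hspa1a and Hspa1b gave 0.54, Bag3 gave -0.43 with Hsp90aa1 and -0.41 with Hsp90ab1, and Hsf1 lay between -0.26 and 0.25 with every other gene. These values are a description, since points share library, depth and class, and pairs of genes are not independent. No background of other gene pairs was set beside them. Genes outside the family reached a higher r with Hsp90ab1 than any member did, as listed below, so such values are not particular to chaperones. Ch25h+/+ Tau+ replicates 3 and 4, low in Hspa8, were also the lowest libraries of their group in Hsph1, Dnajb1, Hsp90aa1 and Hsp90ab1. These are the libraries with the highest oligodendrocyte marker sums, given beside Hspa8, and the part of those markers was not tested here either.

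**Figure D4:**
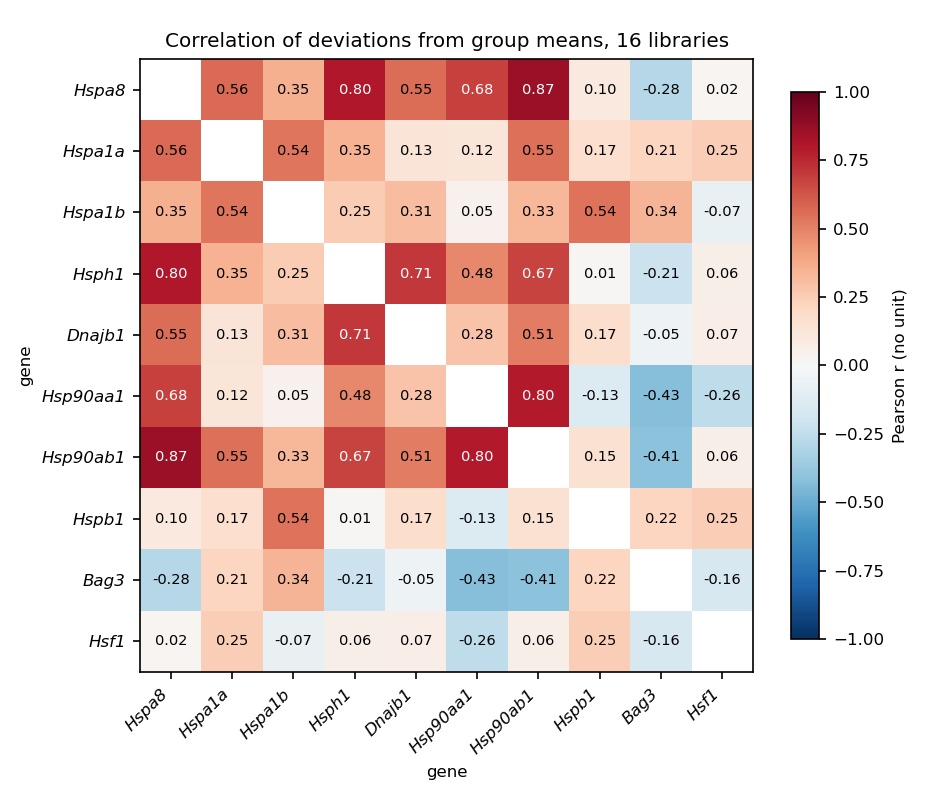
Pearson r (colour and printed value) between each pair of the 10 genes (both axes), computed on deviations from group means over 16 libraries. Hspa8, Hsph1, Dnajb1 and both HSP90 genes form a block of positive values from 0.285 to 0.87, while Hsf1 and Bag3 lie outside it. Hspa1a and Hspa1b were also positive with every gene of the block, from 0.045 to 0.56, so its border is not sharp.

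Among 14480 other genes, those nearest to a member by the same measure were rarely chaperones. The 5 nearest to Hspa8 were Atp6v0d1, Prpf19, Stx12, Hsp90ab1 and Higd1a (r from 0.87 to 0.88), and the 5 nearest to Hsph1 were Rbm18, Tmem170, Hsp90b1, Zc3h15 and Chst10 (r from 0.80 to 0.86). Hsp90b1 encodes the HSP90 of the endoplasmic reticulum. Nearest to Dnajb1 were Gadd45b and Sertad1, both at 0.88 to 0.90, followed by Rundc1, Cry2 and Fam43b down to 0.84. Among the nearest to Hspa1a were Ctdnep1, Lrfn1, Chpf and B4gat1 (0.89 to 0.95), and nearest to Bag3 were Ppard, Pigq, Dusp16, Glul and Zscan25 (0.84 to 0.92). Each list is the top of 14480 values and carries no test.

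The wider chaperone network was read from 7 lists of 80 genes, of which 76 were tested. No gene of these lists passed the threshold for tau in either genotype or for the interaction (edgeR quasi-likelihood test, Benjamini-Hochberg), with 6, 0 and 1 of 76 at an unadjusted p under 0.05 (7.89%, 0% and 1.32%, against 9.38%, 3.68% and 4.13% of all genes). For Ch25h loss in Tau-, 2 of 76 fell (2.63%, against 1.03% of all genes), and for Ch25h loss in Tau+, 1 rose and 2 fell (3.95%, against 3.55%). These shares are near the background. At an unadjusted p under 0.05 there were 22 and 23 of 76 for Ch25h loss in Tau- and Tau+ (28.9% and 30.3%, against 20.9% and 23.9% of all genes). The medians over the 76 genes were -0.025 and 0.011 for tau in Ch25h+/+ and Ch25h-/-, and -0.069 and -0.032 for Ch25h loss in Tau- and Tau+.

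Dnajb2, a J-domain protein of neurons, fell in both tau states, from 134.5 ± 4.40 to 99.1 ± 9.55 CPM in Tau- (-0.44, edgeR adjusted p = 0.0376) and from 130.5 ± 10.6 to 100.5 ± 15.0 CPM in Tau+ (-0.38, edgeR adjusted p = 0.0383, SD, n = 4). Cdc37, which loads kinases onto HSP90, went from 141.5 ± 21.4 to 107.1 ± 15.9 CPM in Tau+ (-0.40, edgeR adjusted p = 0.0484, SD, n = 4). Hspa4l, an HSP110 relative, rose from 158.1 ± 22.2 to 204.2 ± 21.4 CPM in Tau+ (0.37, edgeR adjusted p = 0.0415, SD, n = 4).
These 4 calls were lost with the library class as a covariate (log2 fold changes of -0.040 and -0.088 for Dnajb2 in Tau- and Tau+, -0.12 for Cdc37 and 0.12 for Hspa4l) and with GC-corrected offsets. The latter gave -0.27 and -0.22 for Dnajb2 in Tau- and Tau+, -0.39 for Cdc37 and 0.17 for Hspa4l (adjusted p from 0.0905 to 0.288), so Cdc37 kept its size there. With only the libraries compared, the 3 calls of Tau+ were lost as well (adjusted p from 0.130 to 0.145) at log2 fold changes close to those above, -0.37 for Dnajb2, -0.40 for Cdc37 and 0.37 for Hspa4l. With 1 surrogate variable Hspa4l and Cdc37 lost theirs at 0.36 and -0.39 (adjusted p of 0.0516 and 0.0559). Of the 16 fits that left out 1 library, the call was lost in 11 for Dnajb2 in Tau-, 6 for Dnajb2 in Tau+, 11 for Cdc37 and 9 for Hspa4l, with adjusted p of 0.0502 to 0.168 there. Over the 16 fits the log2 fold change ran from -0.48 to -0.37 for Dnajb2 in Tau-, -0.50 to -0.35 for Dnajb2 in Tau+, -0.53 to -0.29 for Cdc37 and 0.30 to 0.43 for Hspa4l, so the direction did not turn in any of them. Without Ch25h-/- Tau+ replicate 1 the values in Tau+ grew to -0.50 for Dnajb2, -0.53 for Cdc37 and 0.43 for Hspa4l (edgeR adjusted p from 0.00395 to 0.0114). In that fit the Ch25h genotype and the library class cannot be told apart in Tau+ either. In Tau+, every call ended without any 1 of Ch25h+/+ Tau+ replicates 1 and 4 and Ch25h-/- Tau+ replicates 2, 3 and 4, and Dnajb2 also without Ch25h+/+ Tau+ replicate 3. The Cdc37 call also ended without any of Ch25h+/+ Tau- replicates 1, 2, 3 and 4 or Ch25h-/- Tau- replicates 1 and 2, and that of Hspa4l without Ch25h+/+ Tau- replicates 1, 2 or 3 or Ch25h-/- Tau- replicate 2. In Tau-, the Dnajb2 call ended without any of Ch25h+/+ Tau- replicates 1 to 4, Ch25h-/- Tau- replicates 1, 2 and 3, Ch25h+/+ Tau+ replicate 4 or Ch25h-/- Tau+ replicates 2, 3 and 4.

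**Figure D5:**
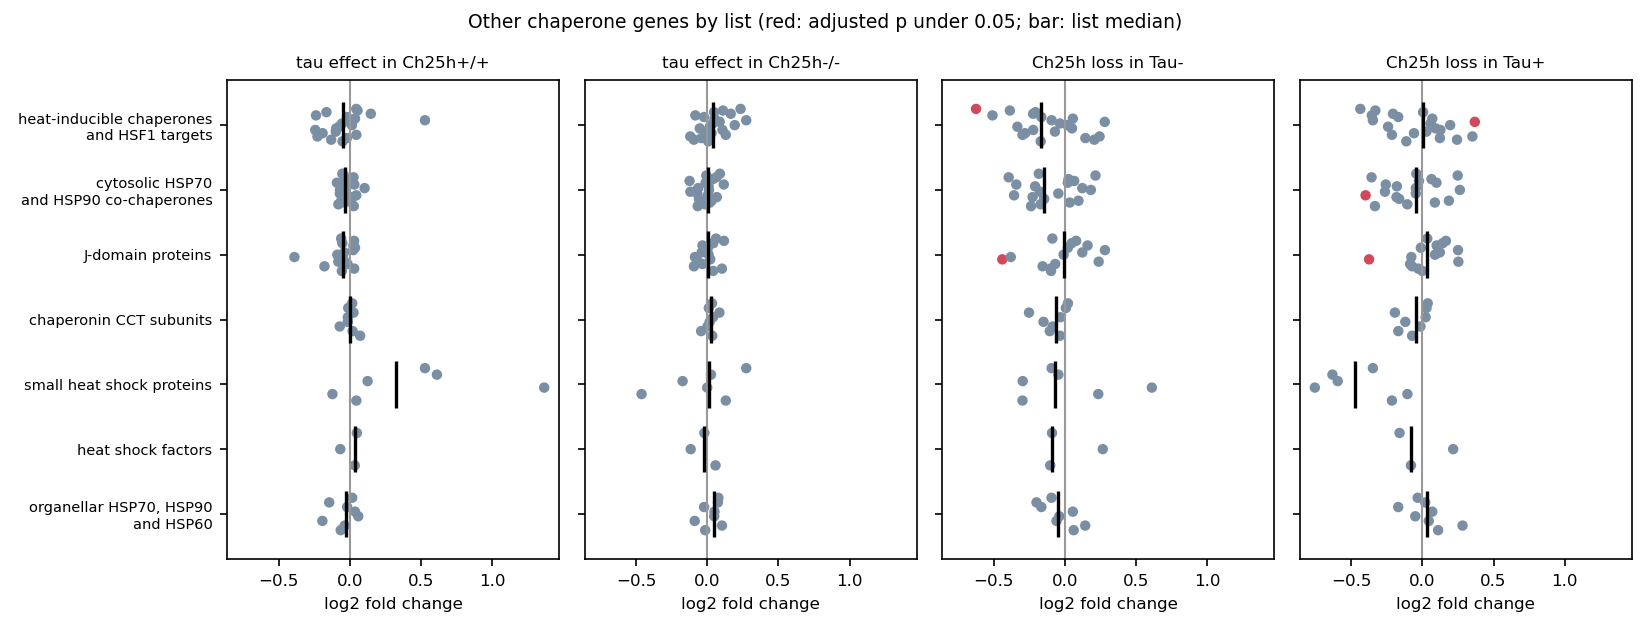
Log2 fold change (x axis) of 76 other chaperone genes in 7 lists (y axis; a gene may be in more than 1 list) for the tau and Ch25h comparisons, with the list median as a bar. Red points had an adjusted p under 0.05, 2 for Ch25h loss in Tau- and 3 for Ch25h loss in Tau+.

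By list, every median other than that of the small heat shock proteins lay between -0.17 and 0.049 in the tau and Ch25h comparisons. The small heat shock proteins (6 of 8 tested) had a median of 0.33 for tau in Ch25h+/+ (5 higher, 1 lower) and -0.47 for Ch25h loss in Tau+ (0 higher, 6 lower), but none passed the threshold. Their genes with an unadjusted p under 0.05 for tau in Ch25h+/+ are named after their values were seen. Hspb8, the partner of BAG3, had 11.8 ± 0.957 CPM in Ch25h+/+ Tau- and 16.9 ± 4.77 in Ch25h+/+ Tau+ (SD, n = 4), a log2 fold change of 0.53 with an edgeR adjusted p of 0.244. Hspb6 had 4.89 ± 0.717 and 7.46 ± 2.21 CPM (0.61, edgeR adjusted p = 0.345), and Hspb2 had 0.276 ± 0.0206 and 0.734 ± 0.230 CPM (1.37, edgeR adjusted p = 0.406), each as SD with n = 4. Hspb2 had few counts, with at most 1.05 CPM in any library of these groups. The rest of the tested list moved less with tau in Ch25h+/+. Cryab, with the highest CPM of the list, had means of 85.1 and 87.9 CPM (0.046), Hspb3 gave 0.13 and Hspb11 gave -0.12. Hspb1, a member and not part of this list, gave -0.044. In Ch25h-/- the log2 fold changes with tau were 0.27 for Hspb8, 0.026 for Hspb6 and -0.00069 for Hspb2. The reactive astrocyte markers given beside Bag3 were highest in the same group. Other summed markers, 5 genes each, moved with them from Ch25h+/+ Tau- to Ch25h+/+ Tau+. Astrocyte markers went from 863 to 907.6 CPM to 1170 to 2282 CPM and microglia markers from 251.7 to 268.3 CPM to 317.5 to 413 CPM, both without overlap. Fibroblast markers (40.7 to 72.6 against 67.2 to 125.8 CPM) and mural cell markers (79.7 to 114.1 against 110.8 to 148.7 CPM) overlapped. The part of these cell types in the values of the small heat shock proteins and of Bag3 was not tested.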

How the data were processed

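Bulk RNA sequencing of mouse brain gave 16 libraries. The values are raw counts per gene as the authors deposited them, and they were checked to be whole and to sum to unequal totals. The submitters' processing notes name STAR 2.7 and GRCm38 (mm10). The counting program, its annotation, its use of strand and its treatment of reads shared by copies are not given in the sources used here. Libraries were grouped by the genotype label, and replicates were numbered in record order.

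Low-count genes were removed with filterByExpr, which kept 17736. All 16 libraries entered 1 edgeR model (version 4.0.16 under R 4.3.3) with group means as terms, TMM scaling and two-sided quasi-likelihood F tests. Benjamini-Hochberg adjustment ran over every gene in the model, with a threshold of 0.05. CPM uses TMM-scaled library sizes except where total counts are named. Intervals are 95% intervals of the fit. Counting errors are Poisson errors of the mean count and leave out all other error, since the reads carry no molecular identifiers. The script was tested on simulated counts.

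The 10 genes, the other chaperone lists and the marker lists were chosen with earlier results of these data known. Named were all 10 genes, list genes past the threshold and the 5 nearest genes by correlation for members given per library and for Hsp90ab1. Of these, 1 list gene and 1 nearest gene are not reported here. Positions, transcripts and GC content came from GENCODE M21 (GRCm38) by symbol, and promoters from RefSeq (GRCm38.p6).

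As alternatives, the tool was DESeq2 1.42.0 or limma-voom (limma 3.58.1) with quality weights, the size factors were of the relative log expression kind, and the filter was a single count or an average of 50 counts. A surrogate variable (sva 3.50.0), the library class or GC-corrected offsets were added, the fit was limited to the groups compared, and each library was left out in turn. Hspa1a and Hspa1b were summed, and log2 ratios of mean CPM were taken with no prior count and on total counts.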

Additional observations from a re-analysis of the deposited data

Results flagged for a closer look

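Of 40 sets of 4 libraries (10 genes in 4 groups), 1 held a library far from the rest. Hsp90ab1 was at 1432 CPM in Ch25h+/+ Tau- replicate 4, and the other 3 libraries of that group were at 1546 to 1561 CPM. The gap to the nearest library was 0.887 of the whole range, above the 95% critical value of Dixon's test for 4 samples. Chance flags about 1 in 20 groups, so 1 of 40 is no more than chance gives. The same library was also the lowest of its group in Hspa8 (1377 CPM), Hsp90aa1 (840.7 CPM) and Hsph1 (298.0 CPM).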

How the results depend on the processing

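The count of members past the threshold was 0 in all 5 comparisons under every alternative run, left-out libraries included (lowest and highest 0), except that limma-voom with quality weights gave 1 for Ch25h loss in Tau+ (Bag3, -0.49, adjusted p = 0.0256). The smallest adjusted p of a member under any alternative was 0.067 for tau in Ch25h+/+, 0.881 for tau in Ch25h-/-, 0.062 for Ch25h loss in Tau- and 0.451 for the interaction. With the library class as a covariate, the log2 fold changes for Ch25h loss in Tau- turned to 0.11 for Hspa1a, -0.17 for Hsp90aa1, 0.19 for Bag3 and 0.11 for Hsf1, and in Tau+ to 0.15 for Hspa1a, -0.078 for Hsp90aa1 and 0.10 for Hsf1. With GC-corrected offsets they turned in Tau- to -0.0090 for Hsp90aa1, 0.039 for Hspb1 and 0.089 for Bag3, and in Tau+ to 0.14 for Hspb1. The log2 fold changes for Ch25h loss changed sign 10 times in Tau- and 13 times in Tau+ over all members and alternatives. Besides the 7 and 4 just given, these were changes to values near 0, among them -0.025 for Hspa8 in Tau- (GC), 0.019 and 0.014 for Dnajb1 (class and GC) and 0.018 for Hsf1 (GC) in Tau+. Signs also changed 13 times for tau in Ch25h+/+, 9 times for tau in Ch25h-/- and 12 times for the interaction, among log2 fold changes of at most 0.050, 0.091 and 0.12 in size, which turned to values of at most 0.13, 0.071 and 0.074 in size. The cause was not tested, and the class fit rests on 1 Ch25h-/- library of the rRNA-poor class. Over all genes, the number called for Ch25h loss ran from 0 (class) to 1388 (limma-voom) in Tau- and from 10 to 1883 in Tau+ under the same settings, for tau from 160 to 498 in Ch25h+/+ and 2 to 28 in Ch25h-/-, and for the interaction from 0 to 57. The fit of only the libraries compared was not run for the interaction, which needs all 16. No paired analysis was possible because the labels give no number that pairs libraries. Counting error alone gave Hspa1a, Hspa1b, Hspb1 and Bag3 a CV of 6.03% to 8.39% and the other members at most 3.41%.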
